A study of Mus musculus with 16 samples.

Results

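Egr1, Egr2, Egr3, Egr4, Nr4a1, Nr4a2, Nr4a3, Arc and Npas4 are genes that neurons switch on when they are active. They were chosen by symbol, as the rows of the count files whose Ensembl identifier carries one of these names, and all 9 were found among the 38924 genes of the files. The libraries were sequenced from polyA RNA of male mouse periaqueductal gray punches, a midbrain region through which opioids relieve pain. The comparisons address how morphine tolerance and RGSz1 bear on expression there. RGSz1 is the product of Rgs20 and shortens G protein signalling. The 4 groups of 4 libraries were RGSz1 KO mice given morphine, RGSz1 KO naive mice, wild-type mice given morphine and wild-type naive mice. Each library pooled 2 animals. The labels give no dose, time after the drug, age or strain and name no vehicle group, so handling and injection cannot be told apart from morphine. In what follows, CPM is a count scaled to the library's total (per mega counts of the library, after TMM scaling), and a call is a Benjamini-Hochberg adjusted p under 0.05 in edgeR's quasi-likelihood test over all 18111 genes tested.

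Egr1 to Egr4 encode zinc-finger transcription factors that bind GC-rich sites near gene starts. Nr4a1 to Nr4a3 encode orphan nuclear receptors whose activity follows from how much of them is made. Npas4 is a transcription factor induced mainly by calcium entry into neurons, and Arc is an effector rather than a regulator: it acts at synapses, where it promotes removal of AMPA-type glutamate receptors. All are immediate early genes, transcribed within minutes of stimulation through factors such as SRF with its ELK partners and CREB that are already present in the cell. Nr4a2 is also a stable identity gene of dopamine neurons.

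All 9 are protein-coding genes of GRCm38 (GENCODE M21). The Egr genes lie on 4 chromosomes: Egr1 at chr18:34859823-34864984 and Egr2 at chr10:67535475-67542188 on the plus strand, Egr3 at chr14:70077203-70082614 on the plus strand, and Egr4 at chr6:85511121-85513589 on the minus strand. The receptor genes are Nr4a1 at chr15:101254269-101274795 (plus), Nr4a2 at chr2:57106830-57124003 (minus) and Nr4a3 at chr4:48045153-48086447 (plus). Arc lies at chr15:74669083-74672570 (minus) and Npas4 at chr19:4984355-4990316 (minus). The promoter windows given further on lie at starts listed by RefSeq, which for Nr4a1, Nr4a3, Npas4 and Egr2 include starts inside the gene span given here.

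The libraries held 19.1 to 55.0 M (mega counts) over genes. Rgs20, the targeted gene, was at 11.4 to 13.0 CPM in libraries labelled KO and given morphine, 11.8 to 14.0 in those labelled KO and naive, 11.9 to 14.4 in wild-type morphine and 11.6 to 13.4 in wild-type naive libraries. Its log2 fold change between libraries labelled KO and wild type was -0.02 ± 0.07 (SE) in naive mice and -0.11 ± 0.07 under morphine (edgeR adjusted p = 0.943 and 0.669). These gene-level counts, which do not show which exons were read, do not separate the genotype labels, and every genotype direction below is one between libraries so labelled. All 7 midbrain markers were detected, at summed levels of 93.3 to 140.0 CPM over the 16 libraries. That sum does not show shifts of single midbrain markers, which are given with morphine averaged over genotypes. The 6 markers of forebrain excitatory neurons, the cells in which Arc and Egr1 are best known, summed to 7.72 to 21.9 CPM. Markers of neighbouring cell groups and of glia moved with treatment and are given beside the results they touch. Libraries KO-labelled morphine 3 and wild-type naive 2 stood apart in 5 meningeal fibroblast markers, which summed to 118 and 158 CPM there and to 26.9 to 55.4 CPM in the other 14 libraries. Without both libraries the 4 member calls for morphine averaged over genotypes stayed at 4, those in KO-labelled libraries became 2, the 1 call in wild type stayed at 1 and the 1 naive genotype call became 0. In bulk tissue, fewer cells of a type and less RNA per cell cannot be told apart.

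RefSeq promoters (GRCm38.p6, 250 bases before to 50 after the start) were at hand for 6 of the 9 genes: Egr2, Egr4, Npas4, Nr4a1, Nr4a2 and Nr4a3. They are shown because the half-site of the CREB element, TGACG, occurs in each of these genes, on one strand or the other, whereas 20.8% of 32817 mouse promoters of the same length hold it. Egr2 holds it at 3 of its 5 listed starts, Egr4 and Npas4 hold 2 each and Nr4a1, Nr4a2 and Nr4a3 hold 4 each. The promoters below set a pair of genes that were higher with morphine (Egr4 and Nr4a3) beside a pair that had no call for morphine (Nr4a1 and Npas4). Egr2 is added, at one of its starts, as the only one of the 6 genes with a CArG box, the SRF site, which 1.63% of promoters hold. Capitals mark TGACG, its reverse complement CGTCA, and the CArG box; sequences run 5′ to 3′ along the gene.
Egr4, chr6:85513540-85513839, minus strand: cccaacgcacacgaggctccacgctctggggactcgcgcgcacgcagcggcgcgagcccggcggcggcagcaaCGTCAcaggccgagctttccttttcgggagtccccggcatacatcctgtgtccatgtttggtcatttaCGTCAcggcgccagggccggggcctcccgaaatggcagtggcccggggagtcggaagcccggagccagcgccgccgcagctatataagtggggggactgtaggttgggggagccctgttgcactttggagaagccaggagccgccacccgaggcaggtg
Nr4a3, chr4:48045055-48045354, plus strand: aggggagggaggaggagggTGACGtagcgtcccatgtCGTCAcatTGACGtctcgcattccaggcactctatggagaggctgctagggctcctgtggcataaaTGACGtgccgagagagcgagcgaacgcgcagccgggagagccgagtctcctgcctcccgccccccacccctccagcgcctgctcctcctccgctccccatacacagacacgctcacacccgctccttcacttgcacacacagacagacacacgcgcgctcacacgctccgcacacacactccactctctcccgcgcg
Nr4a1, chr15:101266596-101266895, plus strand: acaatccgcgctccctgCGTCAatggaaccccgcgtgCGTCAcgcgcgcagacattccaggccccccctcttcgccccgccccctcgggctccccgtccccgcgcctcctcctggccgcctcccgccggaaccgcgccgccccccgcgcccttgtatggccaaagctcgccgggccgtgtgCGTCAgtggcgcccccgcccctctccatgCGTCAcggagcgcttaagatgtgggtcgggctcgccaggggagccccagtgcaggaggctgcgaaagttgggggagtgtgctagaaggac
Npas4, chr19:4989922-4990221, minus strand: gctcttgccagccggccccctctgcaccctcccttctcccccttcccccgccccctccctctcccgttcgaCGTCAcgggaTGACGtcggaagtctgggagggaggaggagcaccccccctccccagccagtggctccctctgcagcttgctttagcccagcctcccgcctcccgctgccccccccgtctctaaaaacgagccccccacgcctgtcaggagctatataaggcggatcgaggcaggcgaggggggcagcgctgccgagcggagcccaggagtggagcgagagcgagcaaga
Egr2, chr10:67537619-67537918, plus strand: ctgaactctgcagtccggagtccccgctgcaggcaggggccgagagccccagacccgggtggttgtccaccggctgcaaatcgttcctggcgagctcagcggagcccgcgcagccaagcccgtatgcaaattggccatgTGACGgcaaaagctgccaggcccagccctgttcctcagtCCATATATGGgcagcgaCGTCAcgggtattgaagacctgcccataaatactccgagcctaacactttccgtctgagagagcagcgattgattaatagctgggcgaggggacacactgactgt
The number of half-sites did not divide the genes by their response: Nr4a3 and Nr4a1 hold 4 each. The full palindrome TGACGTCA, which contains the half-site, was in 0 of the windows searched for these genes, against 1.79% of all promoters. The EGR site GCGNGGGCG was in those of Nr4a1 and Nr4a2 (5.56% of all promoters), and the NR4A monomer site AAAGGTCA in 0 (1.51% of all promoters). All motifs were searched on both strands, and a match is a description of the letters only.

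The 9 genes spanned a wide range of levels. Per kilobase of annotated exon, the mean over the 16 libraries was 14.3 ± 2.38 CPM (SD) for Egr1, 6.29 ± 1.13 for Arc and 3.42 ± 0.78 for Nr4a1, followed by Nr4a2 at 2.35 ± 0.80, Npas4 at 1.51 ± 0.18, Nr4a3 at 1.21 ± 0.42, Egr4 at 1.03 ± 0.30, Egr3 at 0.39 ± 0.15 and Egr2 at 0.068 ± 0.037. Egr1 lay above Arc, Arc above Nr4a1, Egr4 above Egr3 and Egr3 above Egr2 in 16 of 16 libraries. Neighbours in the middle of the order were not separated in every library: Nr4a1 exceeded Nr4a2 in 14 of 16, Nr4a2 exceeded Npas4 in 14, Npas4 exceeded Nr4a3 in 13 and Nr4a3 exceeded Egr4 in 12. Egr2, better known from Schwann cells and hindbrain patterning, had 2 to 21 counts per library and did not pass the filter on low counts, so 8 of the 9 genes were tested. Egr2 ranged from 0.126 to 0.264 CPM in KO-labelled morphine, 0.117 to 0.252 in KO-labelled naive, 0.0711 to 0.540 in wild-type morphine and 0.158 to 0.413 CPM in wild-type naive libraries, and the groups overlapped.

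**Figure D1:**
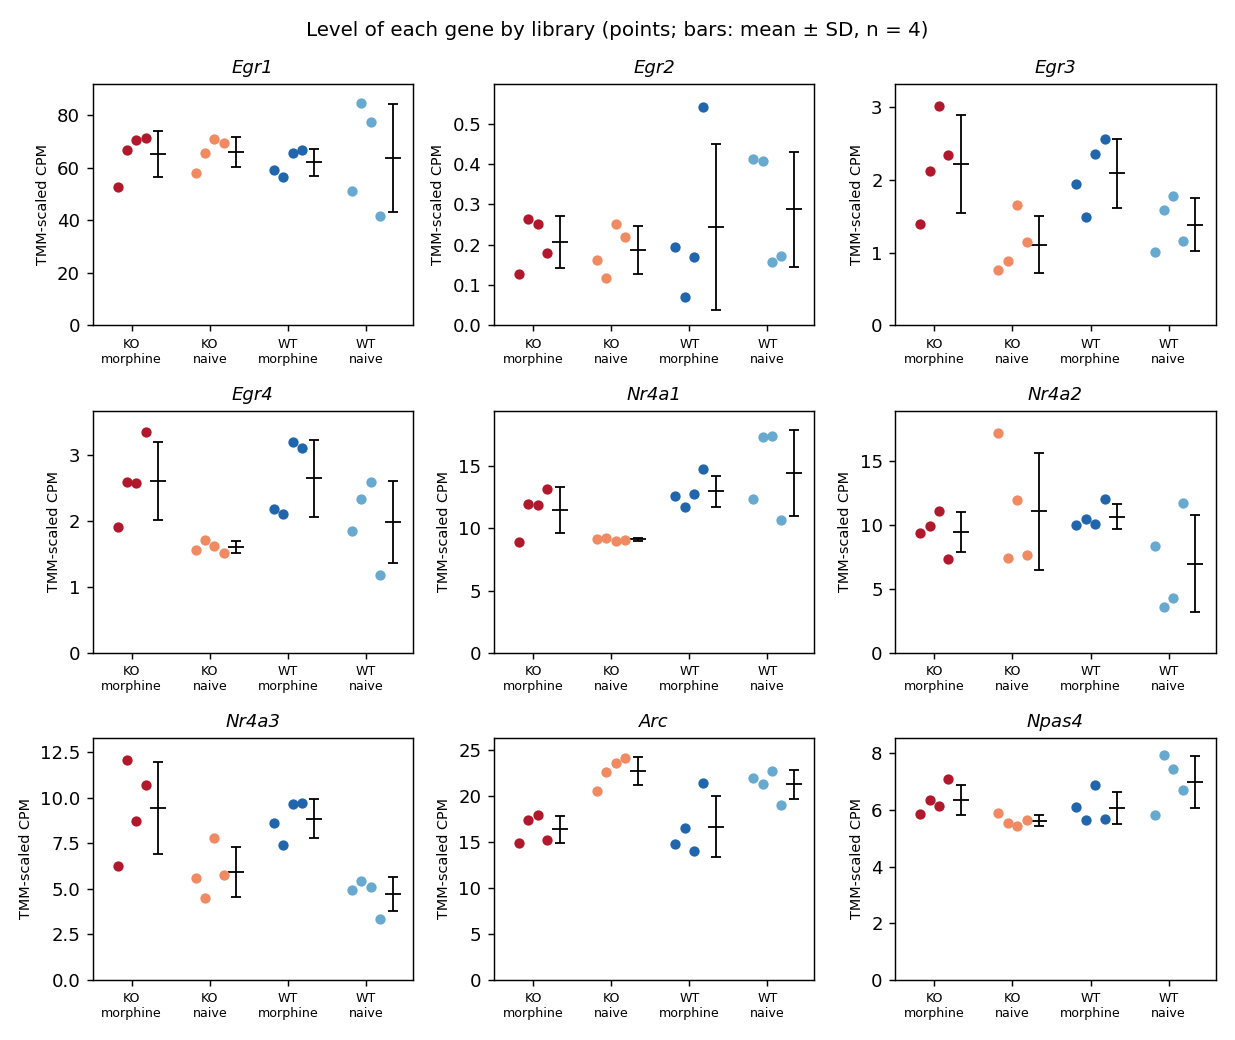
TMM-scaled CPM (vertical axes, each from 0) of the 9 genes in each library, by group, with bars for the mean ± SD of 4 libraries. Nr4a3, Egr3 and Egr4 sit higher in the morphine groups and Arc lower; Nr4a1 in KO-labelled naive libraries lies between 9.00 and 9.23 CPM, below the 10.7 to 17.4 CPM of wild-type naive libraries; Egr1 shows no such shift.

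Averaged over both genotypes, morphine went with higher Nr4a3, Egr3 and Egr4 and lower Arc. Nr4a3 was 1.74-fold higher (log2 fold change 0.80 ± 0.14, SE; edgeR adjusted p = 0.00153), Egr3 1.74-fold (0.80 ± 0.18; adjusted p = 0.00673) and Egr4 1.48-fold (0.56 ± 0.15; adjusted p = 0.0173). Arc fell by 0.42 ± 0.08 on the log2 scale, to 0.75 of the naive level (adjusted p = 0.00164). These 4 of 8 tested genes compare with 17.1% of all genes called in this comparison, 9.02% higher and 8.03% lower. The other 4 were not called: the 95% interval of the log2 fold change ran from -0.32 to 0.26 for Egr1, from -0.16 to 0.13 for Npas4, from -0.13 to 0.30 for Nr4a1 and from -0.36 to 0.74 for Nr4a2. All 4 calls held in each of the 16 fits that left out a library. Cell type markers were called in this comparison too: 5 of 6 serotonin neuron markers and 4 of 8 dopamine neuron markers were higher, and 4 of 5 endothelial, 2 of 6 oligodendrocyte and 2 of 5 microglia markers were lower. Of the 7 midbrain markers, En1 (log2 fold change 1.02) and Gata2 (0.37) were called higher, and Sox14 (-0.38) and Otx2 (-0.23) lower. The summed serotonin markers ranged from 373 to 1194 CPM over the morphine libraries and from 93.0 to 592 CPM over the naive libraries of both genotypes. With that sum as a covariate, a fit added after the data were seen, Egr3 kept its call (1.20, edgeR adjusted p = 0.0275), and Nr4a3 (0.80, adjusted p = 0.105), Arc (-0.40, adjusted p = 0.108) and Egr4 (0.65, adjusted p = 0.198) did not. In the main fit Nr4a3, Arc and Egr4 were at 0.80, -0.42 and 0.56. The serotonin sum moved with treatment, so that fit cannot tell these markers from morphine. With the oligodendrocyte sum Egr4 alone of the 4 lost its call (0.39, edgeR adjusted p = 0.0844).

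In the KO-labelled libraries, 4 of the 8 tested genes were called with morphine, 3 higher and 1 lower, where 11.5% of all genes were called (5.67% higher and 5.83% lower). Egr3 stood at 1.39, 2.11, 3.02 and 2.34 CPM in KO-labelled morphine libraries 1 to 4, against 0.757, 0.890, 1.66 and 1.14 CPM in KO-labelled naive libraries 1 to 4. In all, 3 of the morphine libraries lay above every naive one, and morphine 1 lay below naive 3. The change was 2.03-fold (log2 fold change 1.02 ± 0.27, adjusted p = 0.0212). Egr4 stood at 1.90, 2.59, 2.56 and 3.35 CPM, against 1.55, 1.71, 1.62 and 1.51 CPM in the naive libraries. The groups did not overlap, which held for 17.1% of all tested genes (8.27% higher, 8.78% lower), and the change was 1.64-fold (0.71 ± 0.22, adjusted p = 0.0461).

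Nr4a3, the gene of an orphan nuclear receptor, was at 6.26, 12.1, 8.75 and 10.7 CPM in KO-labelled morphine libraries, against 5.59, 4.50, 7.81 and 5.74 CPM in KO-labelled naive libraries. Morphine 1 fell within the naive range and the other 3 above it, and the change was 1.60-fold (0.68 ± 0.20, adjusted p = 0.041). Arc was at 14.9, 17.3, 17.9 and 15.2 CPM, against 20.6, 22.6, 23.6 and 24.1 CPM in the naive libraries. Every morphine library lay below every naive one (log2 fold change -0.48 ± 0.11, adjusted p = 0.0109). Nr4a1 (0.33 ± 0.15, adjusted p = 0.17) and Npas4 (0.18 ± 0.10, adjusted p = 0.28) were not called, nor were Egr1 (-0.01 ± 0.19, adjusted p = 0.984) and Nr4a2 (-0.25 ± 0.36, adjusted p = 0.731).

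Of these 4 calls, Arc alone held without any 1 library; Egr3 lost its call without KO-labelled morphine 3 or 4 or naive 1 or 2 (adjusted p up to 0.0747). Egr4 lost it in 9 of 16 such fits (without KO-labelled morphine 2, 3 or 4, any KO-labelled naive library, wild-type morphine 4 or wild-type naive 1; up to 0.177) and Nr4a3 in 10 (without KO-labelled morphine 2, 3 or 4, KO-labelled naive 1, 2 or 4, or wild-type morphine 1 or 3 or naive 1 or 3; up to 0.128). Cell type markers moved with the same comparison. The 6 serotonin neuron markers summed to 373 to 1194 CPM in KO-labelled morphine and 93.0 to 259 CPM in KO-labelled naive libraries, with 6 of 6 called higher. The 8 dopamine neuron markers summed to 339 to 685 against 199 to 281 CPM (4 higher, 0 lower), the 6 oligodendrocyte markers to 6782 to 8627 against 9783 to 11230 CPM (0 higher, 5 lower) and the 5 endothelial markers to 70.5 to 99.3 against 107 to 123 CPM (0 higher, 3 lower). None of these markers was at 0 in all libraries. Of the dopamine markers, Slc18a2 (log2 fold change 2.16), Ddc (1.92), Pitx3 (1.01) and Slc6a3 (0.59) were called higher. Th (0.67), Foxa1 (0.51), Lmx1a (0.51) and Aldh1a1 (-0.29) were not called. Their sum rests mainly on Aldh1a1, Slc18a2 and Ddc, with medians of 127, 104 and 94.9 CPM over all libraries. The median was 23.8 CPM for Th and at most 4.89 CPM for the others. KO-labelled morphine libraries 2 and 4 were high in the dopamine sum (669.9 and 685.1 CPM, against 338.7 and 354.4 in 1 and 3). The same libraries were high in the serotonin sum (1117 and 1194 CPM, against 450.1 and 372.9). The 2 lists are therefore not read as separate shifts. With the serotonin marker sum as a covariate, Arc was at -0.46 (adjusted p = 0.19), Egr3 at 1.56 (0.0485), Egr4 at 0.83 (0.241) and Nr4a3 at 0.68 (0.325). With the oligodendrocyte marker sum they were at -0.41, 0.84, 0.26 and 0.25 (adjusted p = 0.137, 0.192, 0.635 and 0.61), so the log2 fold changes of Egr4 and Nr4a3 were over 1.5 times smaller in that fit. Both covariates were added after the data were seen. Neither sum overlapped between KO-labelled morphine and KO-labelled naive libraries, so these fits cannot tell the markers from morphine there.

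In wild-type libraries, 1 of the 8 genes was called with morphine, against 4.41% of all genes (2.34% higher, 2.07% lower). Nr4a3 was at 8.59, 7.43, 9.67 and 9.72 CPM in wild-type morphine libraries 1 to 4, against 4.96, 5.41, 5.11 and 3.34 CPM in wild-type naive libraries 1 to 4. The groups did not overlap, as for 11% of tested genes (5.96% higher, 5.08% lower), and the change was 1.88-fold (log2 fold change 0.91 ± 0.20, adjusted p = 0.0186; 0.054 without wild-type morphine 4, and between 0.00568 and 0.054 over all such fits). Arc was at 14.7, 16.5, 14.0 and 21.4 CPM, against 21.9, 21.3, 22.8 and 19.0 CPM in naive libraries. Of the morphine libraries, 3 lay below all naive ones and morphine 4 lay within their range. Arc was not called (-0.35 ± 0.11, adjusted p = 0.0757), but was called without wild-type morphine 4 (-0.50, adjusted p = 0.00246), without wild-type naive 4 (-0.40, adjusted p = 0.0455), and by DESeq2 and limma-voom.

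Egr3 (0.58 ± 0.25, adjusted p = 0.211) and Egr4 (0.41 ± 0.21, adjusted p = 0.29) were not called in wild-type libraries. For Egr3, 3 of 4 morphine libraries lay above all 4 naive ones, at 1.95, 1.49, 2.35 and 2.56 CPM against 1.01, 1.59, 1.78 and 1.16 CPM. For Egr4 the values were 2.17, 2.10, 3.19 and 3.10 CPM with morphine, against 1.84, 2.33, 2.59 and 1.18 CPM in naive libraries, with 2 of 4 above all naive ones. Nr4a1 (-0.16 ± 0.14), Nr4a2 (0.63 ± 0.36), Npas4 (-0.20 ± 0.10) and Egr1 (-0.04 ± 0.19) were not called either (edgeR adjusted p from 0.249 to 0.929). The interaction, which asks whether the morphine response differed by genotype label, was not called for any member: its log2 value was 0.44 ± 0.37 for Egr3, 0.30 ± 0.31 for Egr4, -0.23 ± 0.29 for Nr4a3 and -0.13 ± 0.15 for Arc (edgeR adjusted p = 0.657, 0.731, 0.787 and 0.784). At an unadjusted p under 0.05 it was passed by 2 members, Nr4a1 (0.50 ± 0.21, adjusted p = 0.358) and Npas4 (0.38 ± 0.14, adjusted p = 0.302). Over all genes 0 were called and 2200 of 18111 (12.1%) had an unadjusted p under 0.05; DESeq2 called 107 genes and 0 members.

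The marker lists in wild-type libraries are given alongside, and whether they differed from the KO-labelled response is not read from these counts. Serotonin markers summed to 470 to 611 CPM with morphine and 171 to 592 in naive libraries (0 of 6 called), dopamine markers to 359 to 471 against 180 to 442 (0 of 8) and oligodendrocyte markers to 8520 to 9904 against 6251 to 10860 CPM (0 of 6). Endothelial markers summed to 73.8 to 83.9 with morphine against 94.0 to 123 CPM (3 of 5 lower) and microglia markers to 115 to 124 against 126 to 158 CPM (1 of 5 lower). Nr4a1 and Egr1 are also made by vessel and immune cells, and the part of these cells in the members' levels was not tested. With the serotonin sum as a covariate Nr4a3 was at 0.91 (adjusted p = 0.0739), and with the oligodendrocyte sum at 1.01 (adjusted p = 0.00349).

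**Figure D2:**
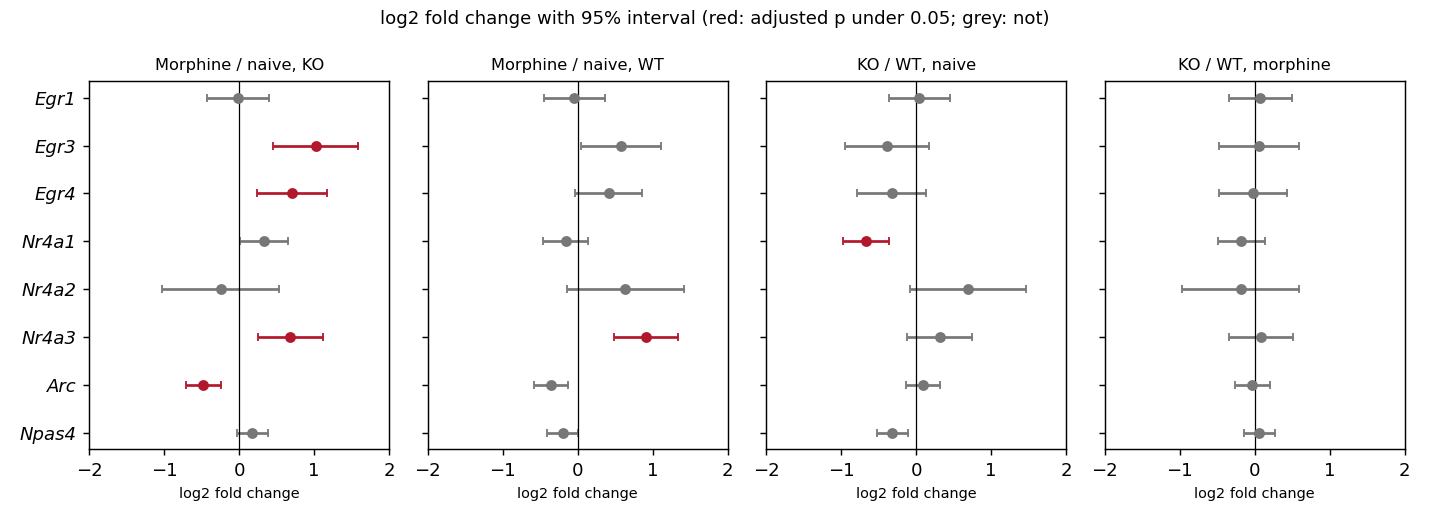
log2 fold change (horizontal axis) with its 95% interval for the 8 tested genes in 4 comparisons; red marks an edgeR adjusted p under 0.05. In both morphine comparisons Egr3, Egr4 and Nr4a3 lie to the right of 0 and Arc to the left, and the interval of Egr1 spans 0 in all 4.

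Ratios between genes of the same library do not depend on library scaling. The count of Nr4a3 divided by that of Arc ranged from 0.420 to 0.703 in KO-labelled morphine and from 0.199 to 0.331 in KO-labelled naive libraries, and from 0.451 to 0.689 in wild-type morphine and from 0.176 to 0.254 in wild-type naive libraries. All 8 morphine libraries lay above all 8 naive ones. Within the Egr family, Egr4 relative to Egr1 ranged from 0.0361 to 0.0469 with morphine and from 0.0217 to 0.0268 without in KO-labelled libraries. In wild-type libraries it ranged from 0.0367 to 0.0486 with morphine and from 0.0275 to 0.0359 without. Every morphine library exceeded every naive one, but by a narrow margin at low counts. The nearest values were 0.03608 in KO-labelled morphine 1 (60 Egr4 counts) and 0.03587 in wild-type naive 1 (49 Egr4 counts). Egr3 relative to Egr1 separated the groups in KO-labelled libraries (0.0265 to 0.0427 against 0.0131 to 0.0233) but overlapped in wild-type libraries (0.0265 to 0.0384 against 0.0188 to 0.0278). The ratios were chosen after the values were seen and are given without a test.

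**Figure D3:**
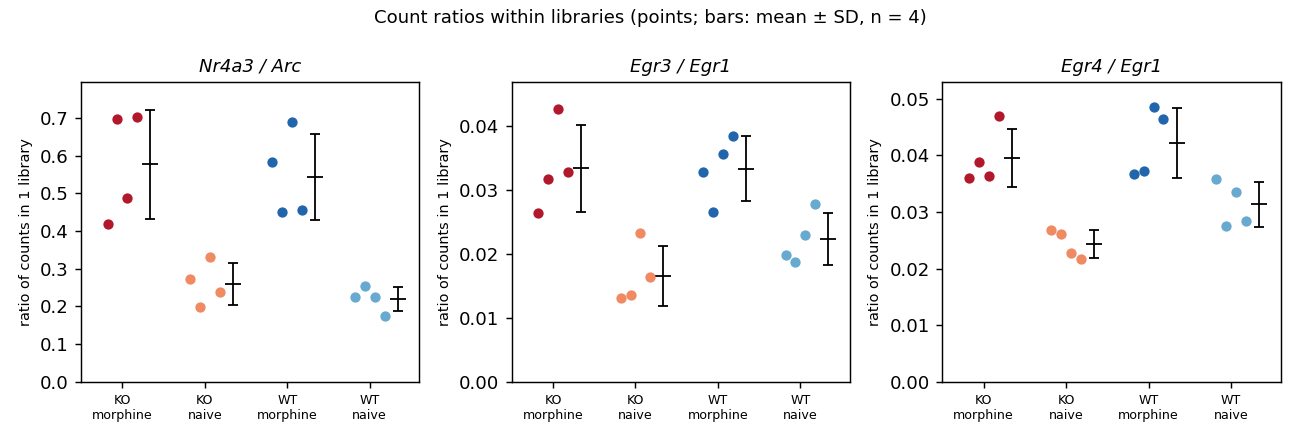
Ratio of the counts of 2 genes within each library (vertical axes, from 0), by group, with bars for the mean ± SD of 4 libraries. For Nr4a3 over Arc the 8 morphine libraries lie at 0.420 or above and the 8 naive libraries at 0.331 or below.

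Between genotype labels, 1 member was called in naive mice, where 0.906% of all genes were called (0.442% higher, 0.464% lower). Nr4a1 was at 9.14, 9.23, 9.00 and 9.08 CPM in KO-labelled naive libraries, against 12.4, 17.4, 17.4 and 10.7 CPM in wild-type naive libraries. The groups did not overlap, as for 8.13% of tested genes (4.14% higher, 3.99% lower), and the spread within the KO-labelled group was small, with an SD of 1.05% of the mean against 23.9% in wild type. The change was 0.63-fold (log2 fold change -0.67 ± 0.14, adjusted p = 0.0387). The call was lost in 9 of 16 fits that left out a library (without any KO-labelled naive library, wild-type naive 2 or 3, wild-type morphine 1 or 3 or KO-labelled morphine 2; adjusted p up to 0.122) and in a fit of only these groups. Npas4 was not called: 5.90, 5.53, 5.44 and 5.63 CPM in KO-labelled naive libraries, against 5.82, 7.94, 7.44 and 6.71 CPM in wild-type naive libraries (-0.32 ± 0.10, adjusted p = 0.146). Egr3 (-0.39 ± 0.27), Egr4 (-0.33 ± 0.22), Nr4a2 (0.69 ± 0.36), Nr4a3 (0.31 ± 0.20), Arc (0.09 ± 0.11) and Egr1 (0.04 ± 0.19) were not called (adjusted p from 0.435 to 0.956). Oligodendrocyte markers summed to 9783 to 11230 CPM in KO-labelled naive and 6251 to 10860 CPM in wild-type naive libraries. With their sum as a covariate Nr4a1 was at -0.46 (edgeR adjusted p = 0.243). Serotonin markers summed to 93.0 to 259 CPM in KO-labelled naive and 171 to 592 CPM in wild-type naive libraries. With that sum as a covariate Nr4a1 kept its call, at -0.73 (edgeR adjusted p = 0.0396).

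Under morphine, 0 members were called between genotype labels by edgeR, DESeq2 or limma-voom, and 0 had an unadjusted p under 0.05, where edgeR called 0.53% of all genes (0.254% higher, 0.276% lower). The groups overlapped for all 9 members, and did not overlap for 5.27% of tested genes (2.25% higher, 3.02% lower). Nr4a1 was at 8.89, 12.0, 11.9 and 13.2 CPM in KO-labelled morphine libraries, against 12.6, 11.8, 12.8 and 14.8 CPM in wild-type morphine libraries (log2 fold change -0.18, 95% interval -0.49 to 0.14). The KO-labelled naive libraries enter both the naive genotype difference of Nr4a1 and its morphine difference. The intervals under morphine bounded the other genes as well: -0.27 to 0.21 for Arc, -0.15 to 0.27 for Npas4, -0.34 to 0.51 for Nr4a3, -0.35 to 0.49 for Egr1, -0.48 to 0.60 for Egr3, -0.48 to 0.42 for Egr4 and -0.97 to 0.59 for Nr4a2.

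Within groups the members did not vary alike. Egr1 was at 52.6, 66.7, 70.7 and 71.4 CPM in KO-labelled morphine libraries, against 57.9, 65.4, 71.0 and 69.5 CPM in KO-labelled naive libraries. In wild type it was at 59.3, 56.3, 65.7 and 66.6 CPM with morphine, against 51.3, 84.6, 77.2 and 41.5 CPM in naive libraries. The SD of Egr1 was 13.4% of the mean in KO-labelled morphine, 8.88% in KO-labelled naive, 8.09% in the wild-type libraries given morphine and 32.2% in those that were naive. Of the wild-type naive libraries, 2 and 3 were high and 1 and 4 low, and Egr3, Egr4 and Nr4a1 divided in the same way. Marker sums of wild-type naive libraries 1 to 4 divided too. Libraries 2 and 3 were low in serotonin (592.3, 170.6, 205.5 and 417.4 CPM) and dopamine markers (441.5, 179.6, 207.4 and 353.1 CPM). They were high in astrocyte markers (1042, 1283, 1233 and 1049 CPM). Endothelial and forebrain excitatory neuron markers did not divide in this way. Whether cell content bears on the members' division was not tested. Nr4a2 was at 9.36, 9.93, 11.1 and 7.34 CPM in KO-labelled morphine libraries, against 17.1, 7.42, 12.0 and 7.67 CPM in KO-labelled naive libraries. In wild type it was at 9.96, 10.5, 10.1 and 12.1 CPM with morphine, against 8.33, 3.53, 4.26 and 11.7 CPM in naive libraries. It was thus low in the wild-type naive libraries where Egr1 was high, and its naive libraries spread most in both genotypes, with an SD of 16.5% of the mean with morphine against 41.3% in naive KO-labelled libraries, and 9.02% with morphine against 54.8% in naive wild-type libraries. For Npas4 the SD was 8.31% of the mean in KO-labelled morphine, 3.54% in KO-labelled naive, 9.35% in wild-type libraries given morphine and 13.2% in those that were naive.

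**Figure D4:**
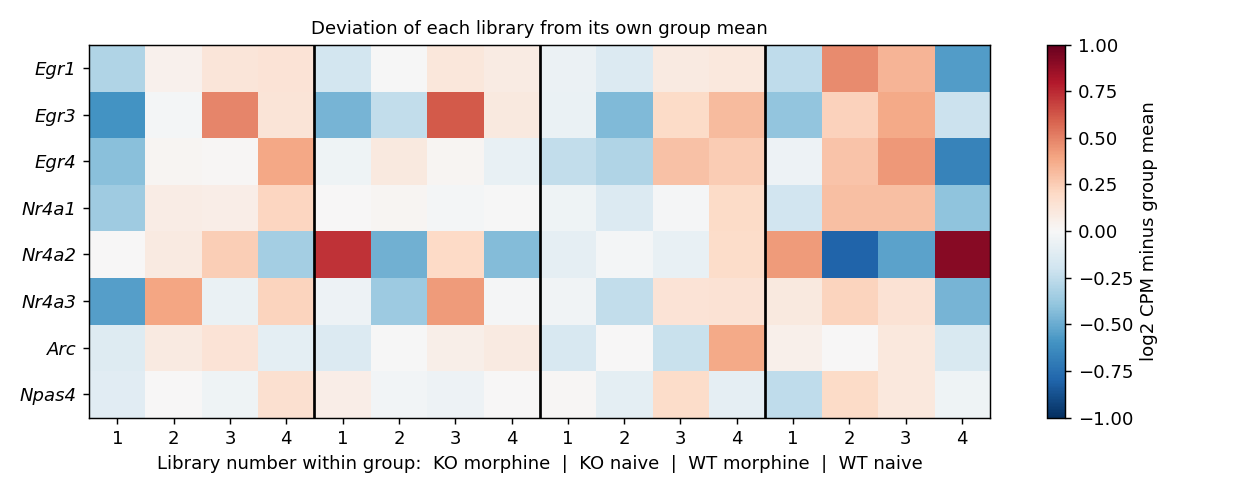
Deviation of log2 CPM from the library's own group mean (colour, red high and blue low) for the 8 tested genes (rows) in the 16 libraries (columns, in 4 groups). In wild-type naive libraries 2 and 3 Egr1, Egr3, Egr4 and Nr4a1 are red and Nr4a2 blue, and the colours turn round in library 4.

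After group means were removed, 20 of 28 pairs of members had a positive correlation over the 16 libraries and 7 passed a permutation test within groups (100000 permutations, two-sided, adjusted over 28 pairs), all of them positive. Egr1 and Nr4a1 had a Pearson r of 0.923 (permutation p = 0.00118, adjusted p = 0.0104; Spearman rho 0.841, permutation p = 0.00916, adjusted p = 0.0446), and r was 0.877 without the 2 libraries farthest from the median of Egr1, wild-type naive 2 and 4. Egr4 and Nr4a1 had r = 0.896 (permutation p = 0.00054, adjusted p = 0.0104; rho 0.85, permutation p = 0.00127, adjusted p = 0.0178), and r = 0.794 without wild-type naive 4 and KO-labelled morphine 1. Among the 3 called pairs with Nr4a3, r was 0.418 with Egr4 and 0.359 with Nr4a1 without wild-type naive 4 and KO-labelled morphine 1, against 0.687 and 0.678 with them, and 0.562 with Egr1 without wild-type naive 2 and 4, against 0.667 with them. By Spearman's rho the pair of Nr4a1 and Nr4a3 missed the threshold (rho 0.585, permutation p = 0.0213, adjusted p = 0.0689). Nr4a2 had a negative r with Egr1 (r = -0.763, permutation p = 0.0345, adjusted p = 0.0879; rho -0.55, permutation p = 0.156, adjusted p = 0.218), which missed the threshold, and r was -0.516 without wild-type naive 2 and 4. Arc passed with no other member; its r ran from -0.336 with Npas4 to 0.46 with Egr3. Same-numbered libraries of different groups are not paired, and the members share library, depth and tissue content. The share of other gene pairs that pass the same test was not computed. These counts therefore do not show a link particular to the members.

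By the same measure, and among all tested protein-coding genes, those most like Egr1 were Fos (r = 0.932 over 16 libraries), Spen (0.882) and Emp2 (0.862), and those most like Nr4a1 were Sik1 (0.885), Fos (0.876) and Lclat1 (0.868). Egr3 and Nr4a3 shared both AP-1 genes Fosl2 (0.872 and 0.847) and Fosb (0.865 for each), with Rbm12 (0.855) next for Egr3 and Rrad (0.864) for Nr4a3. Egr4 was nearest to Kmt2d (0.909), Prr12 (0.907) and Pitpnm3 (0.904). Nr4a2 was nearest to Cbln1 (0.854), Bend5 (0.828) and Nxph3 (0.824), Arc to Fam241a (0.929), Pygo2 (0.882) and Cdk20 (0.878), and Npas4 to Cftr (0.875), Smim24 (0.869) and Rfx1 (0.859). These are the highest of 15304 values for each member and carry no test.

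Other immediate early genes were also called in both directions with morphine. Averaged over genotypes, 11 of 27 tested were higher and 3 lower, with a median log2 fold change of 0.19 against -0.007 over all genes. The 4 with the smallest p were Gadd45g, a growth arrest gene (0.82 ± 0.07), Fosb, an AP-1 subunit gene (1.47 ± 0.13), Tiparp, an ADP-ribosyltransferase gene (0.44 ± 0.05), and the small Maf gene Maff (0.92 ± 0.11), with edgeR adjusted p of 3.05e-05 or less. In KO-labelled libraries 11 were higher and 0 lower, and in wild-type libraries 6 higher and 4 lower. Of the later effectors, 7 of 13 were higher and 1 lower, with a median of 0.23, led by Rgs2, a regulator of Gq signals (0.29 ± 0.04), Crem, a CREB relative (0.33 ± 0.04), Homer1, a postsynaptic scaffold (0.28 ± 0.04), and Pcsk1, a prohormone convertase (0.56 ± 0.08); 6 were higher and 1 lower in KO-labelled and 5 higher in wild-type libraries. Over all genes, 17.1% were called in the average (9.02% higher, 8.03% lower), 11.5% in KO-labelled libraries (5.67% higher, 5.83% lower) and 4.41% in wild-type libraries (2.34% higher, 2.07% lower). Earlier results of these data were known when both lists were drawn up.

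Of 21 tested kinases and transcription factors upstream of the members, 2 were higher and 2 lower in the average, with a median of -0.017: Map2k1 (0.09 ± 0.03) and Camk4 (0.08 ± 0.03), kinase genes of the ERK and calcium pathways, were higher, and the ETS factor gene Elk3 (-0.26 ± 0.06) and the CREB coactivator gene Crtc2 (-0.13 ± 0.04) were lower (edgeR adjusted p from 0.00742 to 0.0499). Among 8 partners and corepressors, 1 was higher and 2 were lower (median -0.033): Rxra, a partner of NR4A1 and NR4A2, was at 0.11 ± 0.02, Arnt, the gene of a dimer partner of NPAS4-type factors, at -0.18 ± 0.04, and Rxrb at -0.07 ± 0.02. The EGR corepressor genes Nab1 (-0.05 ± 0.04) and Nab2 (-0.01 ± 0.07) were not called in the average, but Nab1 was called lower with morphine in KO-labelled libraries (-0.24 ± 0.06, adjusted p = 0.0146) and not called with morphine in wild type (0.13 ± 0.06, adjusted p = 0.211). Nab1 was also called higher in KO-labelled naive than in wild-type naive libraries (0.25 ± 0.06, adjusted p = 0.047), a comparison that shares the KO-labelled naive libraries with the first; its interaction was not called (-0.37 ± 0.08, adjusted p = 0.149). The counts in the average compare with 17.1% of all genes called.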

How the data were processed

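The deposited files hold raw read counts per Ensembl gene, 1 file per library; HTSeq, limma and the mm10 build are named in the submitters' processing notes. The aligner, gene annotation and strandedness used for counting are not given in the sources used. Per the labels' protocols, TRIzol RNA went into TruSeq RNA v2 libraries, a kit that does not mark strand; no other annotated exon overlaps a member. HTSeq tallies of reads not assigned to a gene (38.2 to 40.6% of the total) were left out. Alignments that were not unique made up 24.1 to 26.5% of the total, and reads outside genes 11.3 to 12.7%. Symbols, positions and exon lengths came from GENCODE M21 (GRCm38, the assembly of mm10), which matched 37607 of 38924 identifiers; exon lengths of that release may differ from those counted.

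Genes were kept with filterByExpr (minimum count 10), scaled by TMM and tested in 1 quasi-likelihood fit with 4 group coefficients over 16 libraries (edgeR 4.0.16, R 4.3.3, robust), with Benjamini-Hochberg adjustment over 18111 genes. SE is the size of the log2 fold change divided by the root of F. The fit was tested on simulated data. Alternatives were RLE size factors, no or a stricter filter, DESeq2 1.42.0, limma-voom (3.58.1), only the groups compared, a replicate block, and leaving out libraries. The labels call the libraries biological replicates, and every pair within a group differed beyond sampling noise (chi-square per gene of at least 3.52). The members, gene lists and the rule for other named genes (up to 4 per list with the smallest p for morphine averaged over genotypes; the 3 genes most like each member) were chosen with earlier results of these data known. Low genes had few counts, which adds to their spread: Egr3 had 27 to 125 and Egr4 45 to 170 counts per library. The part of counting in their spread between libraries was not tested.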

Additional observations from a re-analysis of the deposited data

How the results depend on the processing

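The 4 member calls averaged over genotypes stayed at 4 under RLE size factors, both other filters, DESeq2, limma-voom, the replicate block, without wild-type naive 2 and KO-labelled morphine 3, and in all 16 fits that left out 1 library; they were 3 with the oligodendrocyte marker covariate (Egr4 lost) and 1 with the serotonin marker covariate (Egr3 kept). For morphine in KO-labelled libraries the 4 calls became 3 by limma-voom (Egr4 lost) and 3 with only the groups compared (Nr4a3 lost), 2 with no filter, 2 with the replicate block, 2 without wild-type naive 2 and KO-labelled morphine 3, 1 with the serotonin and 0 with the oligodendrocyte covariate, and 1 to 4 with 1 library left out. For morphine in wild type the 1 call became 2 by DESeq2 and by limma-voom, 0 with the serotonin covariate and 1 to 2 with 1 library left out. The naive genotype call became 0 with no filter, only the groups compared, the replicate block, the oligodendrocyte covariate or without both libraries, and 0 to 1 with 1 left out. The cause of these changes was not tested, and the covariates were added after the data were seen.

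Replicate numbers did not pair the libraries: the correlation of same-numbered deviations ran from -0.283 to 0.133 over 24 pairs, and 2 of 16 libraries correlated best with their own number. Counts of all genes called with the replicate block were 512 (798 without it) for morphine in wild type and 89 (164) for the naive genotype comparison. Other settings gave 410 with only the groups compared and 1242 by DESeq2 for morphine in wild type, 376 by DESeq2 and 104 without both libraries for naive genotype, 202 and 236 for genotype under morphine (96 in the main count), and 107 by DESeq2, 1 with no filter and 64 without both libraries for the interaction (0 in the main count). With 1 library left out the counts ran from 378 to 1252 for morphine in wild type, 1037 to 2341 in KO-labelled libraries, 2399 to 3302 averaged, 68 to 210 for naive genotype, 49 to 129 for genotype under morphine and 0 to 56 for the interaction.

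Signs turned in 59 member fits, all of values that were not called. With the oligodendrocyte covariate these were, for genotype under morphine, Arc 0.00806, Egr1 -0.179, Egr3 -0.0512, Npas4 -0.0654, Nr4a2 0.204 and Nr4a3 -0.18; for the interaction, Egr1 -0.51 and Egr4 -0.26; for morphine in KO-labelled libraries, Npas4 -0.0404 and Nr4a2 0.383; Egr1 in wild type 0.0739; and Nr4a1 averaged -0.0355. With the serotonin covariate Egr1 was at -0.0735 for naive genotype and at 0.23 averaged, 0.34 in KO-labelled and 0.12 in wild-type libraries with morphine, Npas4 averaged at 0.0551 and Nr4a2 averaged at -0.0858. By limma-voom Egr1 was at -0.0204 (interaction) and 0.0014 (morphine in wild type) and Egr3 at -0.0107 (genotype under morphine). Without wild-type naive 2 and KO-labelled morphine 3, Egr1 was at -0.17 (interaction), 0.0351 (averaged) and 0.12 (wild type), Egr3 at -0.11 (genotype under morphine) and Npas4 averaged at 0.0282. With 1 library left out, the range crossed 0 for Egr1 (morphine in wild type -0.20 to 0.12, in KO-labelled -0.0719 to 0.0818, averaged -0.11 to 0.0535, naive genotype -0.12 to 0.21, interaction -0.13 to 0.19), Arc (genotype under morphine -0.11 to 0.11, interaction -0.21 to 0.0192), Npas4 (averaged -0.0476 to 0.0198, genotype under morphine -0.00021 to 0.13), Nr4a2 (morphine in KO-labelled -0.40 to 0.0646), and, for genotype under morphine, Egr3 (-0.11 to 0.24), Egr4 (-0.20 to 0.11) and Nr4a3 (-0.0462 to 0.25).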
